A study of Rattus norvegicus with 2 samples.

Results

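Genes of iron storage, iron uptake and heme breakdown were compared between cultured rat endothelial cells from the aorta and from the endocardium, the lining of the heart chambers. The members were the 7 genes Fth1, Ftl1, Tfrc, Tf, Cp, Hmox1 and Hmox2, each taken through every probe set that the platform annotation pairs with that symbol alone. By this rule 4 of the 7 genes were represented, through 8 probe sets, 6 of them bright enough for a ratio, of 4736 genes and 7006 probe sets with a single symbol on the array. Tfrc had 1 such probe set, Hmox1 had 2, Hmox2 had 2 and Cp had 3. For Fth1, Ftl1 and Tf the array carried 1, 2 and 3 probe sets, all of which the annotation also gives to other genes, so no value is assigned to these 3 genes.

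The 2 groups were aortic and endocardial endothelial cells taken from the same 2 rats, pooled by origin without mixing the origins, and passaged 2 times in culture kept closely alike. No treatment and no genetic change is named for either group, and the strain, age and sex of the animals are not given in the sources used here. Each pool gave total RNA for a single Affymetrix rat genome U34A array, so each group had 1 array, no value below has a replicate or a test, and the origin of the cells, the culture and the array cannot be told apart. Each probe set, a group of short probes for a transcript, gave an intensity on a linear scale that can fall below 0.

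Cells take up iron that is bound to transferrin (Tf) through the transferrin receptor (Tfrc), store it in ferritin shells built of heavy (Fth1) and light (Ftl1) chains, and release it through the exporter ferroportin (Slc40a1) with the help of copper ferroxidases such as ceruloplasmin (Cp). Heme oxygenases open the heme ring to give biliverdin, carbon monoxide and free iron. Hmox1 is the form induced by heme, oxidants and other stress, and Hmox2 is the constitutive form. In endothelium, Hmox1 is known as a protective stress enzyme, and transferrin receptor and ferritin are known to be controlled after transcription by the iron regulatory proteins, which an RNA level does not show in full.

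As deposited, before the scaling used here, both arrays had nearly the same overall brightness. The summarising software is not given, so whether the values had already been scaled is not known. The ratio of 3 prime to 5 prime intensity of the beta-actin and GAPDH controls lay between 1.09 and 1.21. The 6 control probe sets of these transcripts had log2 ratios, endocardial over aortic, from -0.54 to -0.16. Values were read against 2 levels: a floor of 635.4, the median of all scaled intensities, and the highest of 38 background controls, 1742. Of 10 endothelial marker genes on the array, 6 were above the floor on each array, while Pecam1, Vwf and Kdr were under it on both, so the endothelial identity of the cells is taken from the labels. Of 15 macrophage and leukocyte marker genes, 6 exceeded the floor in the aortic and 13 in the endocardial cells, and the summed intensity of their brightest probe sets was 23514 and 77762. Among these markers Itgam and Csf1r were at or under the floor on both arrays.

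Of the 4 member genes, Cp was brighter on the endocardial array, Hmox1 was brighter on the aortic array, and Tfrc and Hmox2 lay too close to background for a difference to be detectable. At 2-fold, 1 of the 4 members was higher and 1 was lower on the endocardial array. Over all 2935 genes above the floor on at least 1 array, 5.93% were at least 2-fold higher and 4.16% at least 2-fold lower. The median log2 ratio of all these genes was -0.02. The SD of the log2 ratio among probe sets of the same gene, over 625 genes, was 0.39; it measures the spread between probe sets on these 2 arrays and not between cultures. In such bulk RNA, fewer cells of a type and less RNA per cell cannot be told apart.

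**Figure D1:**
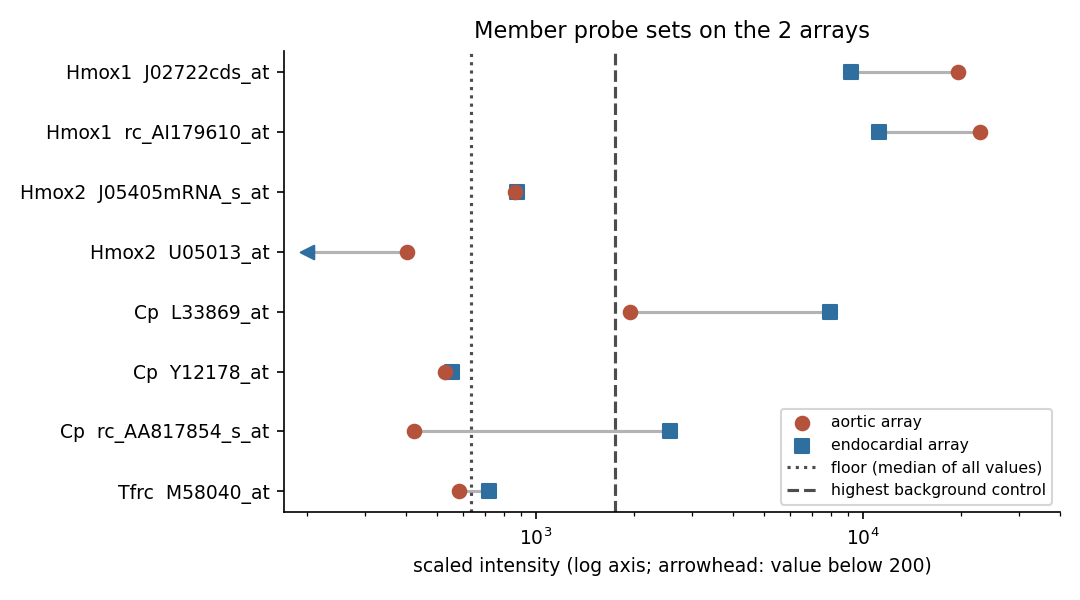
Scaled intensity (log axis) of the 8 member probe sets on the aortic array (circles) and the endocardial array (squares), with the floor of 635.4 (dotted) and the highest background control of 1742 (dashed); an arrowhead marks a value below 200. Both Hmox1 probe sets lie far to the right of both lines with the aortic value higher, 2 of the 3 Cp probe sets have an endocardial value beyond the dashed line, and the Hmox2 and Tfrc probe sets lie to the left of the dashed line.

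Hmox1, the inducible heme oxygenase, was bright on both arrays and lower in the endocardial cells. Its probe set J02722cds_at read 19494 in the aortic and 9196 in the endocardial cells, a 2.12-fold lower value (log2 ratio -1.08). Its other probe set, rc_AI179610_at, had 22881 in the aortic and 11237 in the endocardial cells, 2.04-fold lower (log2 ratio -1.03). All 4 values were above the highest background control, and the log2 ratios of the pair differed by 0.06. The median log2 ratio of Hmox1 was -1.05, or 2.08-fold. That is larger than the 0.39 SD among probe sets of a gene, which leaves out the spread between cultures, but only just past the 2-fold line. With the floor raised to the highest background control, 2.36% of 1904 genes were at least 2-fold lower. Under quantile normalization, median centring or loess on intensity the probe set rc_AI179610_at lay between -0.99 and -0.98, inside 2-fold, while the median of Hmox1 stayed between -1.02 and -1.01.

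Hmox2, the constitutive heme oxygenase, gave dim values. Its probe set J05405mRNA_s_at read 863.5 in the aortic and 878.0 in the endocardial cells, a log2 ratio of 0.02. Its probe set U05013_at had 404.7 and -148.9, both under the floor. None of the 4 values reached the highest background control, so equal expression is not shown. The annotation also holds a pseudogene, Hmox2-ps1, whose own probe set had 956.6 and 694.7, likewise under that control; how far such copies share signal with Hmox2 was not tested.

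**Figure D2:**
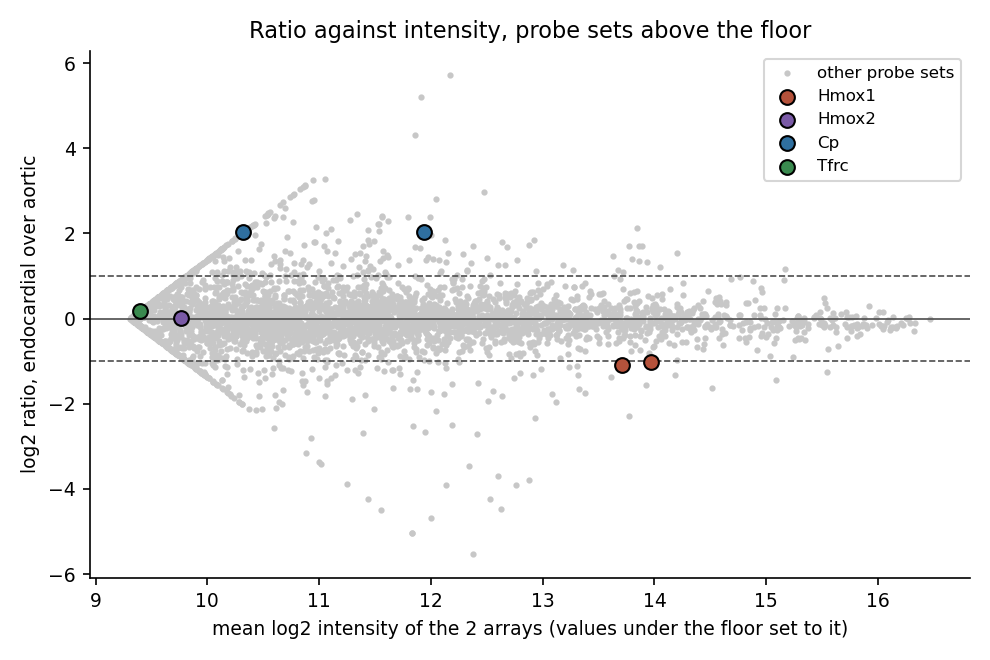
Log2 ratio, endocardial over aortic, against the mean log2 intensity of the 2 arrays for the 3975 probe sets with a single symbol above the floor on at least 1 array (grey), with the 6 member probe sets among them in colour and dashed lines at 2-fold. The Hmox1 pair sits among bright probe sets near the lower dashed line. Above the upper dashed line, 1 Cp probe set sits away from the diagonal edge that the floor creates and the other sits on that edge. Hmox2 and Tfrc sit near 0 at the dim end.

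Ceruloplasmin, Cp, a copper ferroxidase made by the liver and also by other cells, showed the largest ratio among the members and was higher on the endocardial array. Its probe set L33869_at read 1946 in the aortic and 7959 in the endocardial cells, 4.09-fold higher (log2 ratio 2.03). The aortic value was just above the highest background control (1742). The probe set rc_AA817854_s_at had 423.1 on the aortic array, under the floor, and 2580 on the endocardial array, which is at least 4.06-fold higher against the floor and at least 1.48-fold higher against the highest background control. The third Cp probe set, Y12178_at, had 527.4 and 553.0, under the floor on both arrays, and so gave no ratio. Taken over the pair of probe sets above the floor, Cp was at least 4.08-fold higher. With the floor raised to the highest background control the value was at least 2.46-fold, and 3.99% of 1904 genes were at least 2-fold higher there. With the floor at the 75th percentile of all values the log2 ratio of Cp was at least 0.81, a bound that does not reach 2-fold. Both aortic values were then under the floor, and L33869_at alone gave at least 1.63. At the lower floor, 1.33% of 2935 genes were at least 4-fold higher.

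Markers of liver cells, the main source of plasma ceruloplasmin, were at or near background. Of 12 hepatocyte marker genes on the array, 5 exceeded the floor in the aortic and 4 in the endocardial cells, 0 of the 5 measured passed 2-fold, and none exceeded the highest background control on the endocardial array. Their summed intensity was 8073 in the aortic and 6621 in the endocardial cells. Macrophage and leukocyte markers moved mostly in the same direction as Cp. Of 13 measured, 7 were at least 2-fold higher and 0 were lower, against 5.93% and 4.16% of all genes. Each of the 7 was a bound, and most counted as measured only through the endocardial array, so the count describes the list and tests nothing. The median log2 ratio of the 13 was 1.15, and 2 of 10 were higher with the floor raised to the highest background control. Lyz2, the lysozyme of macrophages, had 287.8 in the aortic and 33620 in the endocardial cells. Not every marker went that way: the MHC class II gene RT1-Ba had a median log2 ratio of -0.94, a bound, with its probe set K02815_s_at at 2857 and 1187 but X07551cds_s_at at 147.7 and 2131, and Ptprc, the pan-leukocyte phosphatase, had -0.09. Their part in the Cp difference was not tested.

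The DNA upstream of Cp is shown because Cp had the largest difference among the members; it is the 250 bases before the RefSeq gene start, chr2:104368420-104368669 on the plus strand of GRCr8, written 5′ to 3′, with motif matches in capitals. A match is a description of letters, not a site in use.
Cp: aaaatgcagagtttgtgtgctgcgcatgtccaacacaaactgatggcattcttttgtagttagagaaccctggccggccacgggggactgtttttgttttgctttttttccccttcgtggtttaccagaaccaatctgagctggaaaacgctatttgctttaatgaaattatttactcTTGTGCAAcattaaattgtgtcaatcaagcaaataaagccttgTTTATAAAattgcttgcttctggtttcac
The first capitals match the palindrome TTGNNCAA that binds C/EBP factors, at 72 to 65 bases before the start, which 5.25% of 33469 upstream windows of the same length hold on either strand. The second capitals match the TATA box, TATAAA, at 27 to 22 bases before the start, overlapping a match on the other strand, and 12.9% of windows hold it. The core of the hypoxia response element, ACGTG, was found in 16.6% of all windows, and the antioxidant response element, TGACNNNGC, in 10.1%; these letters are not in the Cp window. Among the other members with a measured probe set, Hmox1 had no upstream entry and was not searched. The Tfrc window held the hypoxia response core at 31 to 27 bases before its start. Of the 2 Hmox2 windows, 1 held that core at 11 to 7 bases before its start. The same window held the antioxidant response element at 95 to 87 bases, each of the Hmox2 matches on the other strand. The pair of motifs seen in Cp was also in the window of Tf, a member without an assigned value. There the palindrome lay at 115 to 108 and the TATA box at 52 to 47 bases before the start.

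Tfrc, the receptor that carries transferrin-bound iron into the cell, was at the limit of the measurement. Its only probe set, M58040_at, read 583.8 on the aortic array, under the floor, and 719.6 on the endocardial array, just above it. Against the floor the ratio is at least 1.13-fold, and both values were under the highest background control, so no difference was detectable at this signal.

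**Figure D3:**
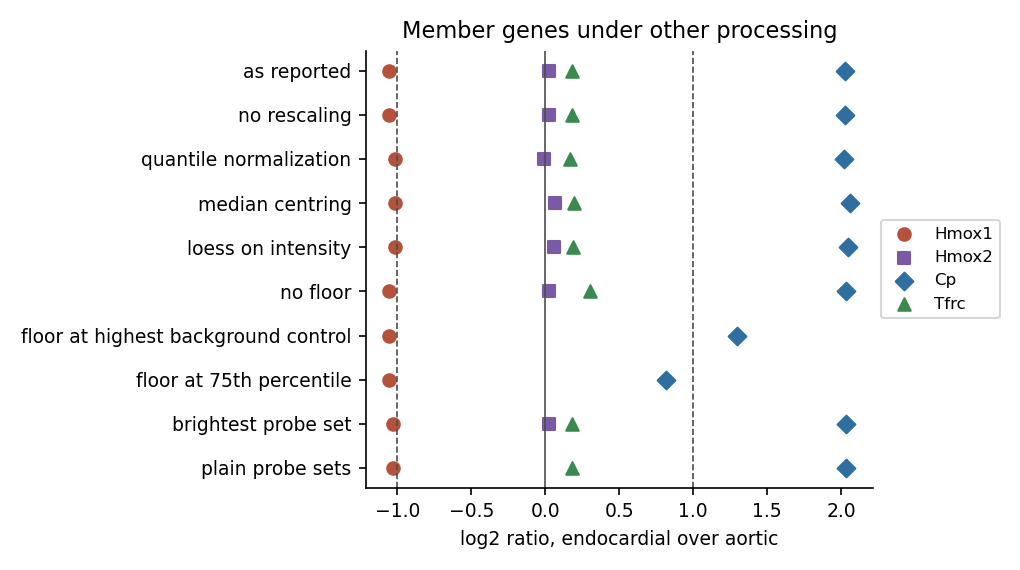
Log2 ratio, endocardial over aortic, of the 4 member genes as reported and under 9 other ways of processing, with dashed lines at 2-fold. A missing point means that no probe set of the gene used in that setting was above its floor on either array. Hmox1 stays between -1.05 and -1.01. Cp drops from 2.03 to 1.30 and 0.81 when the floor is raised, each a lower bound. Hmox2 and Tfrc stay near 0 and vanish with the raised floors.

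Other genes of iron handling went both ways. In a list of 28 genes of iron transport and homeostasis, 11 were on the array and 10 were measured, of which 1 was at least 2-fold higher, 1 was lower and 8 lay between, with a median log2 ratio of 0.00. Over all genes 2639 of 2935 lay between, so the share of this list within 2-fold is near the background. The higher gene was Slc40a1, ferroportin, the cell's iron exporter. Its probe sets had 262.8 and 383.9 on the aortic array, both under the floor, and 1964 and 1656 on the endocardial array, at least 3.09-fold and at least 2.61-fold higher. Against the highest background control only the first gave a ratio, at least 1.13-fold, so this difference rests on values near background. Ferroportin is also known to be abundant in macrophages. Of 13 measured macrophage and leukocyte markers 7 were also at least 2-fold higher, each as a bound, and their part was not tested. The lower gene was Lcn2, lipocalin 2, which binds iron-carrying siderophores, with 10794 in the aortic and 3342 in the endocardial cells, 3.23-fold lower and above the background controls on both.

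B2m, the partner of the iron regulator Hfe and of class I molecules, had a log2 ratio of 0.54, and the hemoglobin scavenger haptoglobin, Hp, had 0.44. The Hp values, 1198 in the aortic and 1627 in the endocardial cells, were both under the highest background control. At the other end, Ncoa4, the receptor that delivers ferritin to lysosomes, had -0.30. The iron regulatory proteins, named here after their values were seen, differed little: Aco1 had 2949 in the aortic and 3315 in the endocardial cells (log2 ratio 0.17), and Ireb2 had 1805 and 1901 (0.07). Each of these log2 ratios except that of B2m and Hp was smaller in size than the 0.39 SD among probe sets of a gene, which leaves out the spread between cultures.

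In the list of heme synthesis and use, 9 of 18 genes were on the array and 8 were measured, with 1 at least 2-fold higher, 1 lower, 6 between and a median log2 ratio of 0.29, against 5.93% higher and 4.16% lower over all genes. The higher gene was Alas2, the erythroid form of the first enzyme of heme synthesis, with 1114 in the aortic and 2758 in the endocardial cells. This was 2.48-fold, but the aortic value was under the highest background control, against which it was at least 1.58-fold. Of 3 erythroid markers on the array, Alas2 itself included, Hbb had a log2 ratio of 0.08 and Slc4a1 had -0.35, a bound; their part in the Alas2 difference was not tested. The lower gene was Urod, a decarboxylase of heme synthesis, with 3383 in the aortic and 1641 in the endocardial cells, 2.06-fold, and at least 1.94-fold against the highest background control. Blvra, which reduces the biliverdin that heme oxygenase makes, had 1213 and 1972 (log2 ratio 0.70), and at least 1.13-fold with the floor at that control. Cyb5r3, a cytochrome b5 reductase, had a log2 ratio of -0.41 over 5 probe sets that ranged from -0.66 to 0.01. Once the floor was raised to that control, 0 of the 6 genes still measured passed 2-fold, where 76 higher and 45 lower genes of 1904 did over the whole array, so a count of 0 is near the background.

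Factors known to control Hmox1, and genes induced by the same oxidant response, did not share 1 direction. Of 18 listed, 10 were on the array and measured, with 1 at least 2-fold higher, 2 lower and 7 between, and a median log2 ratio of -0.10, against 5.93% higher and 4.16% lower over all genes. The lower genes were Nqo1, a quinone reductase, and Hif1a, the hypoxia-inducible factor subunit. Nqo1 had 11958 in the aortic and 3399 in the endocardial cells with probe set J02679_s_at, 3.52-fold lower, and 1119 and -63.7 with M58495mRNA_at, at least 1.76-fold lower against the floor. Hif1a had 6347 and 2032, 3.12-fold lower, and each value exceeded the highest background control. Both stayed lower past 2-fold with the floor at that control, where 2 of 6 measured genes of the list were lower and 0 higher, against 2.36% and 3.99% of all genes.

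The higher gene of this list was Jun, part of the AP-1 transcription factor, through 1 of its 4 probe sets. It had 571.9 in the aortic and 1392 in the endocardial cells, both under the highest background control. After median centring the log2 ratio of Jun was 0.58, a bound that does not reach 2-fold. Nfe2l2, the factor that activates Hmox1 and Nqo1 under oxidant stress, had 4849 and 4172 with 1 probe set and 7194 and 8798 with the other, log2 ratios of -0.22 and 0.29. Mafk, its binding partner, had a log2 ratio of 0.26. The stress factor Atf3 had -0.33, with both values under the highest background control. The glutathione synthesis genes Gclc and Gclm, also targets of Nfe2l2 and named after their values were seen, had log2 ratios of -0.22, a bound, and -0.08. All their values were under the highest background control, so equal expression is not shown. Txnrd1, also on this list and named after its values were seen, was above that control on both arrays and had a log2 ratio of -0.11.

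**Figure D4:**
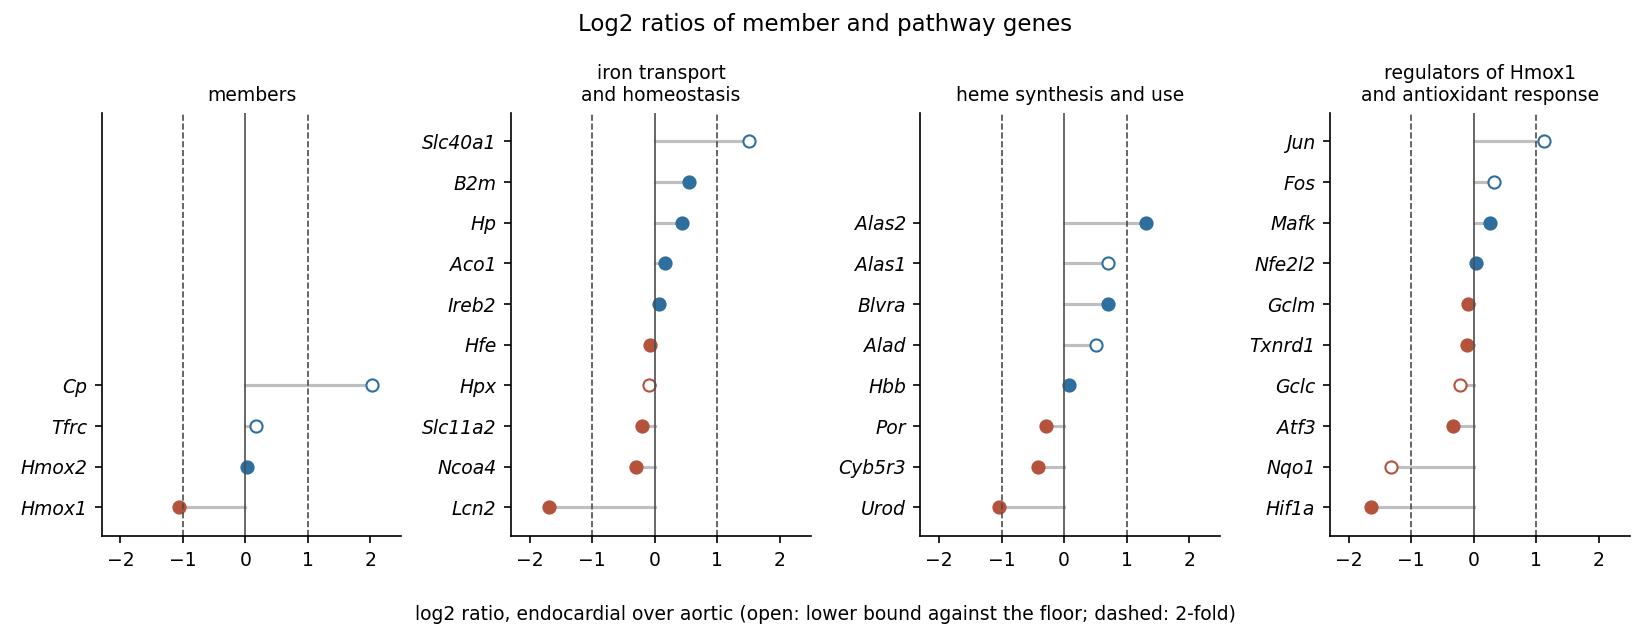
Log2 ratio, endocardial over aortic, of each measured gene among the members and the 3 pathway lists, with open circles for lower bounds against the floor and dashed lines at 2-fold. Most genes lie between the dashed lines; Cp, Slc40a1, Alas2 and Jun lie to the right, and Hmox1, Lcn2, Urod, Nqo1 and Hif1a to the left.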

How the data were processed

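Intensities were deposited by the authors, 1 per probe set and array, on a linear scale; the sources used here do not give the summarising software, and detection calls were not used here. The 59 control probe sets were left out, and the 8740 others were scaled to the same 2% trimmed mean. Values under the floor (635.4) were set to it, and a probe set with neither value above it gave no ratio. A gene's value is the median log2 ratio over its remaining probe sets; it is called a bound where a value under the floor could move it. Probe sets with 1 symbol numbered 7006, with several 308 and with none 1426. All 72 member and list genes on the array matched the RefSeq table of GRCr8 by gene identifier, with 0 symbols differing.

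With 1 array per group no test was made. Members, lists, motifs and alternatives were chosen with earlier results of these data known. Every member probe set is named, and of the 3 pathway lists the genes past 2-fold on any probe set and the 2 highest and 2 lowest above the floor on both arrays. The counting step was tested on simulated data, with changes set only in genes far above the floor and less noise than among real probe sets. That test does not cover dim values. Upstream sequence came from RefSeq (GRCr8), found for Cp, Tfrc, Hmox2 and Tf; Hmox1, Fth1 and Ftl1 had no entry. Python 3.11.15, pandas 2.3.3 and statsmodels 0.14.6 were used.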

Additional observations from a re-analysis of the deposited data

Results flagged for a closer look

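Probe sets that the annotation gives to several genes were outside the comparisons, and 4 of those that list a ferritin chain or transferrin exceeded every background control. The probe set rc_AI169802_at, listed for a ferritin heavy chain gene and a pseudogene of it, had 49195 in the aortic and 43952 in the endocardial cells, a log2 ratio of -0.16. The probe set rc_AI231807_at, listed for 9 genes with ferritin light chain copies among them, had 80964 and 66195 (log2 ratio -0.29), and rc_AI231807_g_at, listed for 8 of them, had 88205 and 58445 (log2 ratio -0.59). These 3 probe sets were thus bright on both arrays and inside 2-fold, and which copy gives the signal is not known.

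The probe set D38380_g_at, listed for transferrin and Srprb, had -11.9 in the aortic and 3360 in the endocardial cells, at least 5.29-fold higher against the floor and at least 1.93-fold against the highest background control. The other probe sets with the same listing, D38380_at (331.8 and 737.8) and U31866_g_at (345.1 and 1132), were higher on the endocardial array too, and stayed under that control.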

How the results depend on the processing

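The median of Hmox1 stayed at least 2-fold lower under all 10 alternatives that give it a value (log2 ratio from -1.05 to -1.01). The floor settings could not move this median, since all Hmox1 values exceed every floor used. Leaving out the scaling hardly could, the factors being 1.0006 and 0.9994. The Hmox1 probe set rc_AI179610_at lay inside 2-fold under quantile normalization, median centring and loess on intensity (-0.99 to -0.98). The beta-actin and GAPDH control probe sets were also lower on the endocardial array (-0.54 to -0.16), and scaling to them was not tried. Cp stayed higher under all 10 alternatives. Its log2 ratio fell, however, from 2.03 to 1.30 once the floor was raised to the highest background control, mouse controls included or not. It fell to 0.81 with the floor at the 75th percentile. Values under a raised floor are set to it, so 1.30 and 0.81 are lower bounds. Member genes past 2-fold then numbered 1 with the 75th percentile floor (Hmox1), and 1 at a 4-fold call (Cp), against 2 as reported. Hmox2 ranged from -0.01 to 0.07 and Tfrc from 0.17 to 0.30, and both had no value with either raised floor; Hmox2 had none with plain probe sets. The 296 genes of the whole array past 2-fold became 714 at a 1.5-fold call, 57 at 4-fold, 121 for the highest background control as floor, mouse controls included or not, 85 with the 75th percentile floor, and 752 with no floor. For the pathway genes, alternatives were chosen after seeing the data. A raised floor left Slc40a1, Alas2 and Urod with bounds that do not reach 2-fold, and median centring did so for Jun (0.58). No called value changed direction. No paired analysis was possible because each group has 1 array. The number of arrays limits the precision, and dim probe sets can show no difference.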
